A study of Mus musculus with 2 samples.

Results

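The 8 genes Sema4a, Sema4d, Sema7a, Plxnb2, Plxna1, Plxnc1, Plxnd1 and Nrp1, which encode semaphorins, their plexin receptors and a neuropilin co-receptor, were followed across the CD11c+ cells of the mouse spleen. They were taken by name out of 27032 genes in the deposited tables, from a list with no threshold on measured values. Like the comparisons, they were chosen with earlier results of these data known, so counts of calls among them are descriptive. The series holds 2 samples, WT replicate 1 and WT replicate 2, both from wild-type mice with no treatment named in the labels. The study's methods give a C57BL/6J background and adult animals of either sex for its mice in general. Splenic cells were enriched on CD11c magnetic beads, tagged per sample and read as single-cell transcriptomes on the BD Rhapsody platform, in which each captured transcript carries a unique molecular identifier (UMI) and is counted once. The number of mice behind each sample, and their sex and exact age, are not given in the sources used here, so all p-values measure the spread between these 2 samples alone, which may be technical. The study used these cells to ask which signals pass between marginal metallophilic macrophages (MMMs) and Langerin+ cDC1s.

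After removal of cells with few genes or extreme totals, 5651 of 6393 cells remained, 2928 in replicate 1 and 2723 in replicate 2, with medians of 12220 and 11433 UMIs per cell. No cell index occurred in both samples. Each cell was placed in the first of 9 classes whose gate of 1 or 2 marker genes it met (Vcam1 and C1qb for macrophages and Ccr7 and Fscn1 for mature DCs, for instance), and the UMIs of a class were summed per sample. The classes held 423 macrophages, 311 mature DCs, 1252 cDC1s, 1012 DCIR2 cDC2s, 892 CLEC10A cDC2s, 32 pDCs, 237 B cells, 200 T cells and 74 NK cells, while 1218 cells met no gate. Checked against markers that the gates did not use, macrophages (11 of 11 markers highest in their own class in both replicates), mature DCs, B cells, T cells and NK cells (8 of 8 each) carried the markers of their labels, and in cDC1s and pDCs 5 of 8 were highest. The labels of the 2 cDC2 classes were weaker: 0 of 7 DCIR2 and 1 of 7 CLEC10A markers were highest in their class among all 9, although 4 of 7 were so in each when only the 3 resident cDC classes were compared. In the pDC class 21 of 32 cells met a second gate, as did 72 of 311 mature DCs and 365 of 1012 DCIR2 cDC2s. For DCIR2 cDC2s this second gate was that of CLEC10A cDC2s, the only later one, so the 2 cDC2 classes overlap by gate. These class names therefore stand for the gates.

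Semaphorins are cell-bound or secreted proteins that share a sema domain and bind plexins, whose intracellular part is a GTPase-activating domain that acts on small GTPases of the Ras family and thereby on integrins and the cytoskeleton. Neuropilins have almost no intracellular signalling part and serve as co-receptors with plexins. In the immune system this family is known for T-cell costimulation by DCs, for contact between B and T cells and for the migration of DCs and macrophages.

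The promoters of 4 of the genes are shown because of their patterns of expression: Sema7a and Plxnc1 both had their highest level in mature DCs, and Plxnb2 and Nrp1 were both higher in macrophages than in resident cDCs. Each sequence runs 5′ to 3′ on the gene's own strand, from 250 bases before to 50 bases after the RefSeq start site (build GRCm38.p6). They lie at chr9:57939862-57940161 (Sema7a, plus strand), chr10:94944796-94945095 (Plxnc1, minus strand), chr15:89180739-89181038 (Plxnb2, minus strand) and chr8:128358823-128359122 (Nrp1, plus strand). Capitals mark GAGGAA, the core of PU.1-type ETS sites, searched on both strands.
Sema7a: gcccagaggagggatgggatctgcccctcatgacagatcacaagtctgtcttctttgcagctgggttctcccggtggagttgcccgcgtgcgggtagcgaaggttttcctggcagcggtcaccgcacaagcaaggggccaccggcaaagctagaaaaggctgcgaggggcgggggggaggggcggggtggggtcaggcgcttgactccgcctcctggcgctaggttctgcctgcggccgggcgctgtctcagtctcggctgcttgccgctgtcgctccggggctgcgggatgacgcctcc
Plxnc1: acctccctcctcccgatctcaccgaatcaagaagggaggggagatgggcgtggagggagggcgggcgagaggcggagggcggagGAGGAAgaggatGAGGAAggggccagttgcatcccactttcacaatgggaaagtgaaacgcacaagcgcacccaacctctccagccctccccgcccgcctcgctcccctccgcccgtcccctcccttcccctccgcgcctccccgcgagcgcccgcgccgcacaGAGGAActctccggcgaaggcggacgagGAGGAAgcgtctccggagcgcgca
Plxnb2: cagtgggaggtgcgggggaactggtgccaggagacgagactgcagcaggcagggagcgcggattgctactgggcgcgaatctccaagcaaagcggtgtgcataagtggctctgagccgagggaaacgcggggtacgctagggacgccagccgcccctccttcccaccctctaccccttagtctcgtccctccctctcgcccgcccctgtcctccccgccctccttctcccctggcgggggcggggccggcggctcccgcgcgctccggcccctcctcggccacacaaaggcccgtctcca
Nrp1: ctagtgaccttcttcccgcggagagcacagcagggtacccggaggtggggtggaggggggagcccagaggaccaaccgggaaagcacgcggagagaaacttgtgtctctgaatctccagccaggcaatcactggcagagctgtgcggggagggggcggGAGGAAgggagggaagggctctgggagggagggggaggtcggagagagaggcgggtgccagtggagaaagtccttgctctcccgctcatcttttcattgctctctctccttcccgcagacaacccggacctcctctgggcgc
The Plxnc1 promoter held 4 copies of GAGGAA and the Nrp1 promoter 1, whereas Sema7a and both start sites of Plxnb2 (the first is shown) held 0. Of the promoters not shown, that of Plxnd1 held 2, the 4 start sites of Sema4a held 2, 1, 0 and 0, and the 3 of Sema4d held 0. Of all 32851 RefSeq mouse promoters of this length 28.3% held at least 1. A longer kappaB-type motif, also searched on both strands, was found in 1.63% of all promoters and in none of the members' promoters read here. RefSeq promoters were matched for 7 of the 8 genes, all except Plxna1.

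Macrophages differed from the mean of resident cDCs in all 8 genes, and mature DCs had the highest Sema7a and Plxnc1. Relative to resident cDCs (the mean of cDC1s, DCIR2 cDC2s and CLEC10A cDC2s on the log scale), macrophages had higher Plxna1, Plxnb2 and Nrp1 and lower Sema4a, Sema4d, Sema7a, Plxnc1 and Plxnd1, so that all 8 genes were called at an adjusted p under 0.05 by edgeR, where 54.0% of all 11903 genes tested were called. Mature DCs had higher Sema7a, Plxnc1, Plxnd1 and Sema4a (4 of 8 called, against 33.1% of all genes). Of these, Sema7a and Plxnc1 were above each resident cDC class in both replicates. Sema4a in mature DCs lay below that of cDC1s in both replicates. Plxnd1 in mature DCs did not differ from that of DCIR2 cDC2s past the threshold (edgeR, adjusted p = 0.362). In pDCs 3 of 8 were higher (Nrp1, Sema4a and Plxnb2, against 9.66%), but without the cells that met more than 1 gate edgeR called 0 of 8 and 0 had an unadjusted p under 0.05. In B cells 6 of 8 were called (36.2% of all genes), with Sema7a higher and the other 5 lower. In T cells 7 of 8 were called (33.8%), Sema4a and Nrp1 higher and the other 5 lower, but the call of Plxna1 rested on 1 UMI and was lost with the sample as a replicate block (adjusted p = 0.0581). In NK cells 4 of 8 were called (21.7%), Sema4a higher and Sema7a, Plxnb2 and Plxnc1 lower, but the call of Sema7a rested on 4 UMIs and was lost with total UMIs in place of TMM scaling (adjusted p = 0.0625) or with only the classes compared in the fit (0.0548).

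Among the resident cDCs, cDC1s differed from both cDC2 classes in 6 of 8 genes (35.9% of all genes), with Sema4a higher and Sema4d, Sema7a, Plxnb2, Plxnc1 and Plxnd1 lower. CLEC10A cDC2s differed from DCIR2 cDC2s in 4 of 8 (5.55%), with Sema4a, Plxna1 and Nrp1 higher and Plxnc1 lower. The Plxnc1 call was lost in DESeq2 (adjusted p = 0.11) and in edgeR without cells of more than 1 gate (0.0915). All of these comparisons draw on the same resident cDC sums and are therefore not independent of each other. A call against the mean of resident cDCs also need not hold against each class in it. By edgeR, Sema4a did not differ past the threshold between T cells and cDC1s (adjusted p = 0.347) or macrophages and DCIR2 cDC2s (0.496). Nor did Plxnb2 between pDCs and CLEC10A cDC2s (0.799). Sema4a in pDCs lay below cDC1s in both replicates, and Plxnd1 in macrophages overlapped with cDC1s. Macrophages against CLEC10A cDC2s alone had all 8 members called. The median log2 fold change over the 8 members was -2.23 in macrophages, 0.96 in mature DCs, 0.39 in pDCs, -1.12 in B cells, -1.54 in T cells and -0.89 in NK cells, against medians between -0.16 and -0.02 over all genes.

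**Figure D1:**
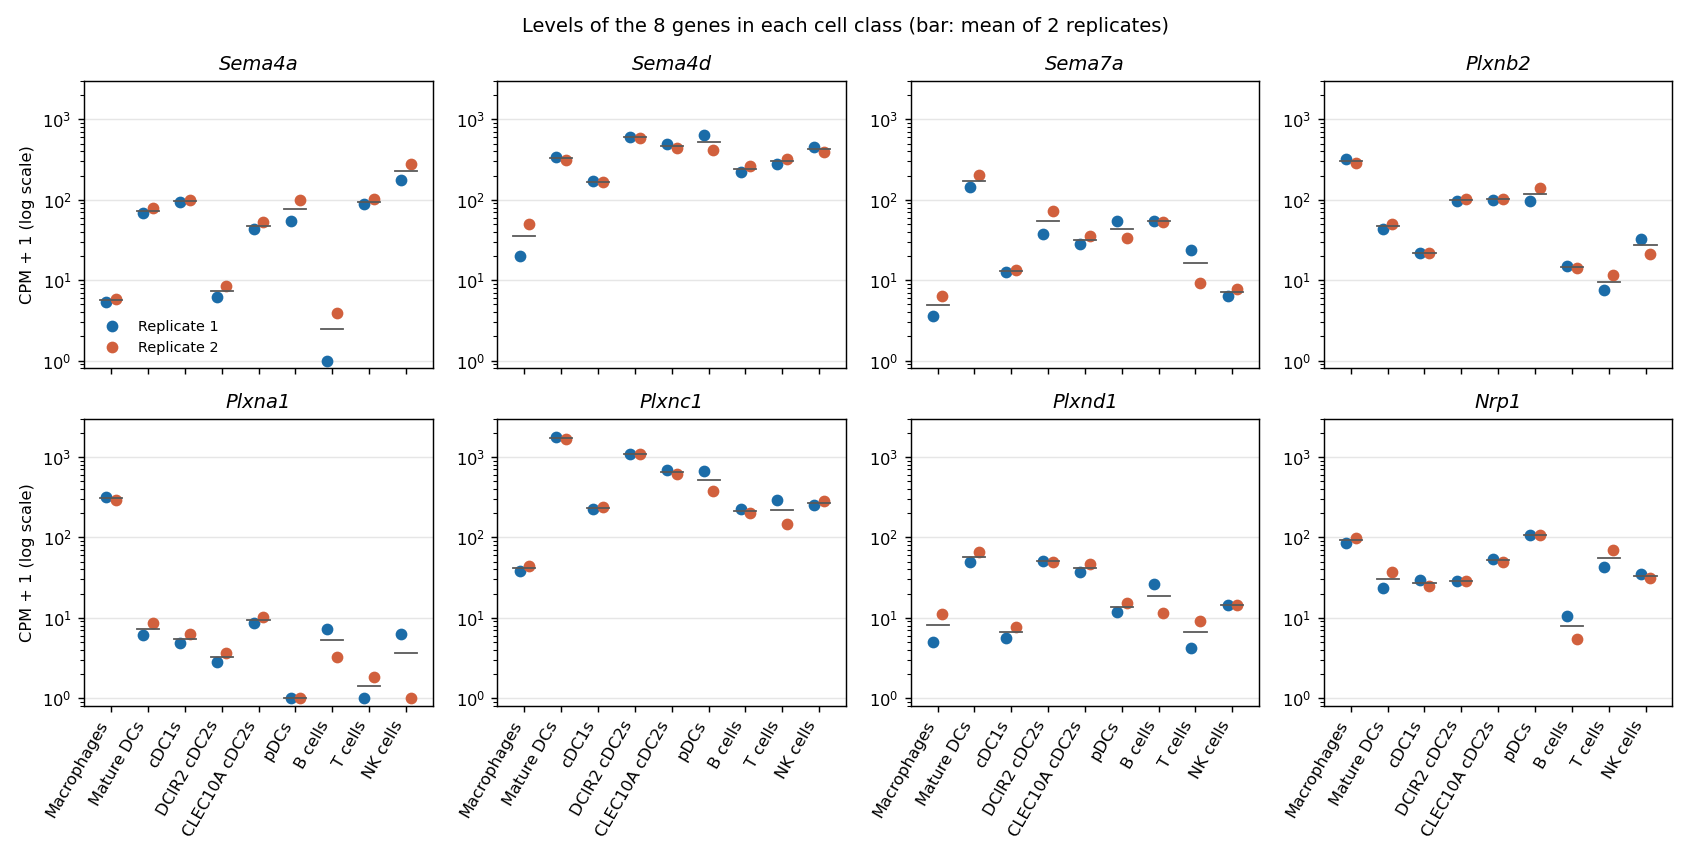
Level of each gene (CPM + 1, log scale) in the 9 cell classes, 1 point per replicate and a bar for their mean. Plxna1 stands out in macrophages (320 and 294 CPM), Sema7a in mature DCs (144 and 200 CPM) and Plxnc1 is lowest in macrophages (37.2 and 43.6 CPM).

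Levels are given as UMIs of the gene per 1000000 UMIs of the class (CPM), replicate 1 first. They compare classes for 1 gene and not genes with each other, since they are not corrected for length. Sema4a (ENSMUSG00000028064.17, GRCm38 chr3:88435959-88461182, minus strand) encodes a transmembrane semaphorin known as a costimulator of T cells. Its level was 175 and 275 CPM in NK cells, 94.1 and 98.6 in cDC1s, 87.0 and 100 in T cells, 53.3 and 97.5 in pDCs, and 67.5 and 77.0 in mature DCs. It was 41.9 and 51.7 CPM in CLEC10A cDC2s, 5.25 and 7.496 in DCIR2 cDC2s, 4.34 and 4.89 in macrophages, and 0 and 2.95 in B cells. NK cells stood above all other classes in both replicates, whereas cDC1s, T cells, pDCs and mature DCs overlapped with their neighbours in this order.

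The clearest split of Sema4a lay within the cDCs. It was 2.65 ± 0.17 log2 units (± SE) higher in cDC1s than in cDC2s (edgeR, adjusted p = 1.55e-10), and 2.94 ± 0.25 higher in CLEC10A than in DCIR2 cDC2s (3.52e-07). At least 1 Sema4a UMI was found in 70.0% and 72.7% of cDC1s against 5.04% and 7.02% of DCIR2 cDC2s, and with every cell thinned to 3000 UMIs in 23.2% and 24.1% against 1.38% and 1.92%; the unthinned medians were 19520.5 and 20890.5 UMIs per cDC1 and 12205 and 12094.5 per DCIR2 cDC2. The cDC1s held 66.1% and 57.8% of all Sema4a UMIs. NK cells exceeded cDC1s by 0.85 ± 0.22 (adjusted p = 0.00697), in a contrast with 2 of 8 members and 27.5% of all genes called.

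Sema4d (ENSMUSG00000021451.16, chr13:51685529-51793747, minus strand) encodes CD100, a transmembrane semaphorin abundant on lymphocytes that binds plexin-B receptors and CD72. Its level was 609 and 585 CPM in DCIR2 cDC2s, 640 and 419 in pDCs, 487 and 443 in CLEC10A cDC2s, and 453 and 391 in NK cells. It was 342 and 312 CPM in mature DCs, 280 and 322 in T cells, 218 and 261 in B cells, 168 and 163 in cDC1s, and 19.0 and 48.9 in macrophages. The first 4 classes of this order overlapped with their neighbours, and DCIR2 cDC2s and pDCs did not differ past the threshold (0.30 ± 0.25 log2 units, adjusted p = 0.547, in a contrast with 3 of 8 members and 9.06% of all genes called). Macrophages lay below every other class in both replicates.

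The fall of Sema4d in macrophages was 3.45 ± 0.24 log2 units, that is 10.9-fold lower than in resident cDCs (adjusted p = 1.72e-10). A Sema4d UMI was present in 97.5% and 96.9% of DCIR2 cDC2s and in 12.97% and 17.7% of macrophages, and after thinning in 78.6% and 76.6% against 3.86% and 7.39%, although the macrophages were the deeper cells (medians of 19313 and 18136.5 UMIs). Some marker sums of other cells were also higher in macrophages of replicate 2: that of 8 T-cell markers was 6.87 and 25.3 CPM and of 8 B-cell markers 39.2 and 67.3 CPM, with none of the T- or B-cell markers at 0. The 8 NK-cell (6.51 and 6.12) and 5 monocyte markers (23.1 and 22.4) did not rise. Sema4d was 24.2 and 72.4 CPM in macrophages without and 11.7 and 20.04 in those with a Siglec1 UMI. There the T-cell markers summed to 8.37 and 12.6 against 4.77 and 41.0 CPM, and the B-cell markers to 35.0 and 82.0 against 45.1 and 49.2. The part of these markers in the Sema4d value was not tested. Within resident cDCs, Sema4d was lower in cDC1s than in cDC2s, where it fell by 1.504 ± 0.20 log2 units (adjusted p = 4e-06).

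Sema7a (ENSMUSG00000038264.8, chr9:57940112-57962865, plus strand) encodes a semaphorin held in the membrane by a lipid anchor, which binds plexin-C1 and integrins. Its level was 144 and 200 CPM in mature DCs, 36.1 and 70.8 in DCIR2 cDC2s, 53.4 and 52.3 in B cells, 53.3 and 32.5 in pDCs, and 27.5 and 34.6 in CLEC10A cDC2s. It was 22.5 and 8.14 CPM in T cells, 11.45 and 12.5 in cDC1s, 5.30 and 6.79 in NK cells (2 UMIs in each replicate) and 2.53 and 5.30 in macrophages. Mature DCs were above every other class in both replicates, and DCIR2 cDC2s, B cells, pDCs and CLEC10A cDC2s could not be ordered beyond their spread.

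Mature DCs are resident or migratory DCs that have upregulated Ccr7 and antigen presentation. In them Sema7a was 2.74 ± 0.20 log2 units above resident cDCs (adjusted p = 1.43e-09) and 1.85 ± 0.26 above DCIR2 cDC2s, the next class (adjusted p = 1.78e-05, in a contrast with 6 of 8 members and 26.1% of all genes called). A Sema7a UMI was seen in 52.9% and 61.3% of mature DCs and in 3.41% and 3.85% of macrophages, or after thinning in 29.8% and 37.1% against 0.7503% and 1.02%. Median depth was 10399 and 10738 UMIs in mature DCs, below that of macrophages. In B cells Sema7a was 0.81 ± 0.29 higher than in resident cDCs (adjusted p = 0.0346), a call that was lost when cells of more than 1 gate were left out (0.0583) or with only the classes compared in the fit (0.0542).

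**Figure D2:**
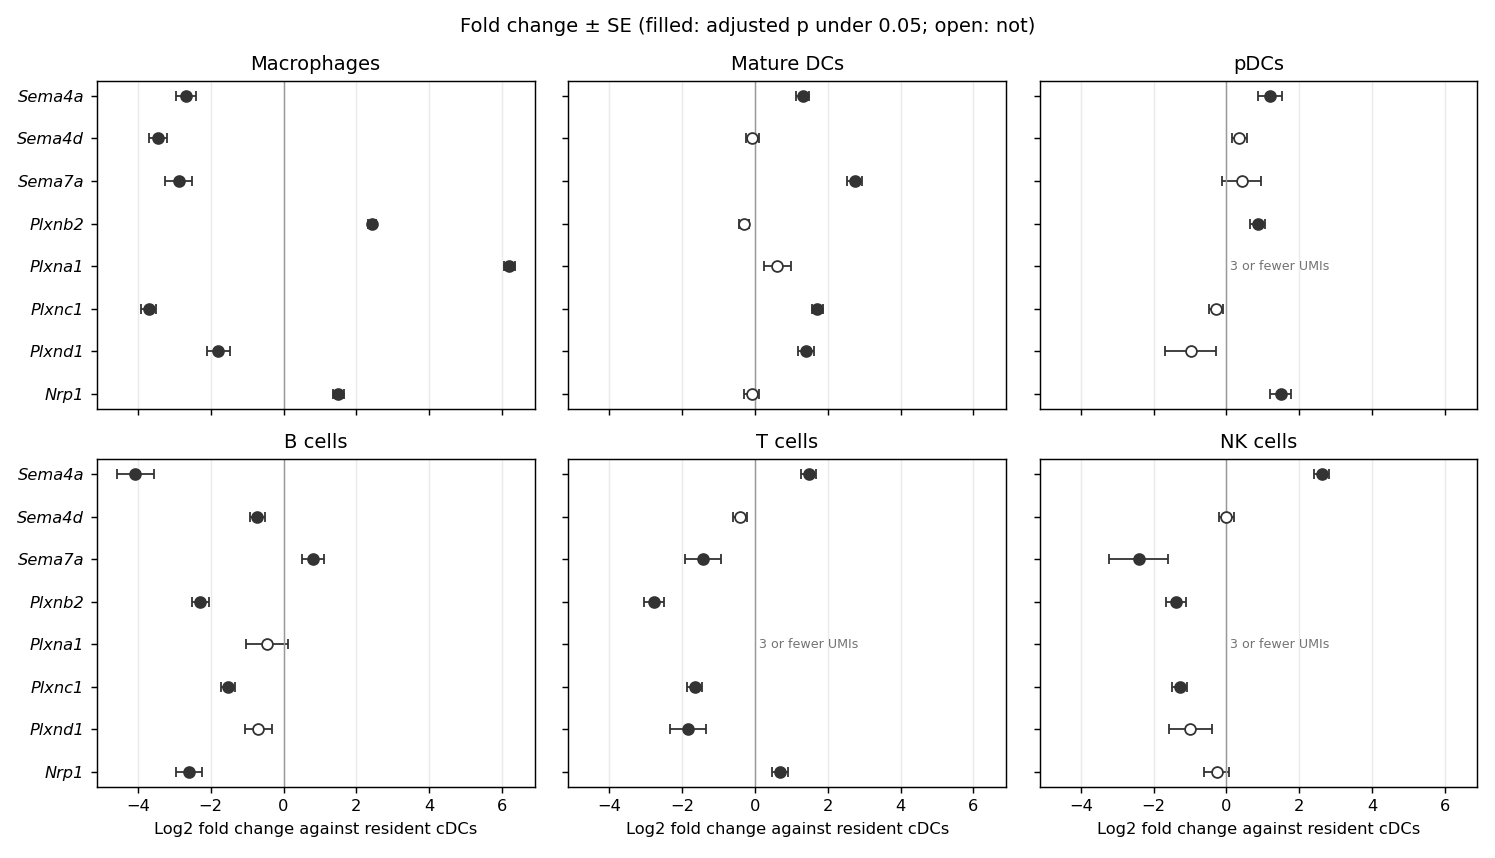
Log2 fold change (± SE) of each gene in 6 cell classes against resident cDCs, filled where the adjusted p was under 0.05 and open where not; Plxna1 is not drawn where a class held 3 or fewer UMIs. In macrophages the 5 genes at negative values reach -3.70 (Plxnc1) and Plxna1 reaches 6.20, while in mature DCs Sema7a reaches 2.74.

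Plxnb2 (ENSMUSG00000036606.17, chr15:89155549-89180788, minus strand) encodes plexin-B2, a receptor of class IV semaphorins such as Sema4d. Its level was 317 and 289 CPM in macrophages, 95.9 and 141 in pDCs, 98.3 and 102 in CLEC10A cDC2s, and 96.6 and 102 in DCIR2 cDC2s. It was 42.3 and 49.5 CPM in mature DCs, 31.8 and 20.4 in NK cells, 20.9 and 20.9 in cDC1s, 14.1 and 13.3 in B cells, and 6.44 and 10.6 in T cells. Macrophages were clearly highest, pDCs and both cDC2 classes overlapped, and so did NK cells and cDC1s.

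Macrophages exceeded resident cDCs in Plxnb2 by 2.43 ± 0.10 log2 units (5.39-fold, adjusted p = 6.56e-14) and pDCs, the next class, by 1.57 ± 0.20 (3.77e-06, in a contrast with 6 of 8 members and 28.9% of all genes called). Within resident cDCs it was cDC1s that had little Plxnb2, where the gene fell by 2.08 ± 0.13 log2 units relative to cDC2s (1.81e-10). Plxnb2 was detected in 95.2% and 94.6% of macrophages and in 4.88% and 4.40% of T cells, whose medians were 6145 and 6490 UMIs, and after thinning in 59.2% and 55.6% against 1.86% and 1.87%. DCIR2 cDC2s carried both Sema4d and Plxnb2, with UMIs of both genes in 58.5% and 61.6% of cells.

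Plxna1 (ENSMUSG00000030084.11, chr6:89316314-89362620, minus strand) encodes plexin-A1, a receptor of class III semaphorins together with neuropilins and of Sema6d. Its level was 320 and 294 CPM in macrophages, and no more than 9.19 CPM in any other class of either replicate. CLEC10A cDC2s had 7.69 and 9.19 CPM, mature DCs 5.04 and 7.497, cDC1s 3.84 and 5.19, B cells 6.28 and 2.21, NK cells 5.30 and 0, DCIR2 cDC2s 1.80 and 2.67, T cells 0 and 0.814, and pDCs 0 and 0. Macrophages were set apart in both replicates, and below them no class differed from the next past the threshold (CLEC10A cDC2s against mature DCs 0.30 ± 0.38 log2 units, adjusted p = 0.627).

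This was the largest difference of any of the 8 genes against resident cDCs: macrophages exceeded them by 6.20 ± 0.15 log2 units (73.4-fold, adjusted p = 6.97e-17) and CLEC10A cDC2s by 5.29 ± 0.22 (1.02e-12, in a contrast with all 8 members and 46.4% of all genes called). The pDCs had no Plxna1 UMI, which puts them at least 48.3-fold lower than macrophages when 3 UMIs over the class are taken as the limit. In T cells a single UMI stood against 226 in resident cDCs, so that the pooled level of resident cDCs was 7.18 times that of T cells with an exact counting interval of 1.28 to 285. Plxna1 UMIs were present in 91.5% (exact 95% interval 87.7 to 94.4) and 93.1% (87.3 to 96.8) of macrophages and in 1.80% and 2.63% of DCIR2 cDC2s, and after thinning in 56.3% and 53.5% against 0.505% and 0.854%. Such intervals cover counting error only. Macrophages made up 10.01% and 4.77% of the cells but held 89.0% and 75.0% of the Plxna1 UMIs.

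CLEC10A cDC2s had 1.97 ± 0.34 log2 units more Plxna1 than DCIR2 cDC2s (adjusted p = 0.00132), at levels below 10 CPM in both. The gene overlaps an annotated antisense transcript, Gm26811, which had 23 and 4 UMIs in macrophages. Whether the counting used strand was not given in the sources used here, so reads of the 2 genes may be mixed. Plxna1 itself was counted at 1771 and 720 UMIs there. Macrophages also carried RNA of erythroid genes, with a summed level of 3742 and 914 CPM over 5 markers (all 5 highest in macrophages) against 13.4 to 72.5 CPM in the 3 resident cDC classes. Its part in the Plxna1 level was not tested.

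Plxnc1 (ENSMUSG00000074785.5, chr10:94790866-94944835, minus strand) encodes plexin-C1, the plexin that binds Sema7a. Its level was 1770 and 1661 CPM in mature DCs, 1096 and 1092 in DCIR2 cDC2s, 686 and 610 in CLEC10A cDC2s, and 672 and 372 in pDCs. It was 252 and 282 CPM in NK cells, 228 and 237 in cDC1s, 290 and 145 in T cells, 224 and 202 in B cells, and 37.2 and 43.6 in macrophages. Mature DCs and then DCIR2 cDC2s were apart from all others, CLEC10A cDC2s and pDCs overlapped, and cDC1s, T cells and B cells overlapped.

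Mature DCs exceeded resident cDCs in Plxnc1 by 1.71 ± 0.15 log2 units (adjusted p = 1.82e-08) and DCIR2 cDC2s by 0.79 ± 0.19 (0.00454). Macrophages lay at the other end, where Plxnc1 fell by 3.70 ± 0.22 log2 units (13.04-fold lower, adjusted p = 1.02e-11). The order of resident cDCs was DCIR2 cDC2s, then CLEC10A cDC2s, then cDC1s, with a fall of 1.69 ± 0.18 in cDC1s against cDC2s (2.6e-07) and of 0.70 ± 0.19 in CLEC10A against DCIR2 cDC2s (0.0384). The latter call was lost in DESeq2 (0.11) and in edgeR without cells of more than 1 gate (0.0915). A Plxnc1 UMI was found in 98.6% and 100% of mature DCs, 100% and 99.6% of DCIR2 cDC2s and 19.1% and 18.5% of macrophages, and thinning left 94.97% and 96.3%, 91.5% and 91.7%, and 7.02% and 8.60%.

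Ligand and receptor of this pair met in the same cells: all 73 and all 106 mature DCs with a Sema7a UMI also had a Plxnc1 UMI. Since nearly every mature DC had Plxnc1, this count says little beyond the 2 separate shares. By cell number, DCIR2 cDC2s and not mature DCs held the most Plxnc1 UMIs, with 32.7% and 30.3% of the total against 11.6% and 15.4%.

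Plxnd1 (ENSMUSG00000030123.15, chr6:115954811-115995005, minus strand) encodes plexin-D1, the receptor of Sema3e and a known receptor of Sema4a. Its level was 47.9 and 65.0 CPM in mature DCs, 49.6 and 48.8 in DCIR2 cDC2s, 36.6 and 45.5 in CLEC10A cDC2s, and 25.1 and 10.3 in B cells. It was 13.3 and 13.6 CPM in NK cells, 10.7 and 14.4 in pDCs, 3.98 and 10.2 in macrophages, 3.22 and 8.14 in T cells, and 4.67 and 6.64 in cDC1s. Mature DCs and DCIR2 cDC2s overlapped (0.36 ± 0.26 log2 units apart, adjusted p = 0.362), as did the 3 lowest classes.

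The main contrast of Plxnd1 was therefore that of cDC1s with cDC2s, in which it fell by 2.83 ± 0.26 log2 units (7.09-fold lower, adjusted p = 2.33e-08), against a difference of -0.21 ± 0.25 between the 2 cDC2 classes (0.81). Against resident cDCs it was 1.40 ± 0.23 higher in mature DCs (6.49e-05), and in macrophages it fell by 1.79 ± 0.31 (5.82e-05). In cDC1s the order of this receptor and of its ligand gene Sema4a was opposite, cDC1s being high in Sema4a and low in Plxnd1. UMIs of both were held by 5.41% and 5.99% of cDC1s. With Sema4a in 70.0% and 72.7% and Plxnd1 in 8.19% and 9.15% of cDC1s, this joint share says little beyond the 2 separate ones.

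Nrp1 (ENSMUSG00000025810.9, chr8:128358604-128503363, plus strand) encodes neuropilin-1, a co-receptor of class III semaphorins and of VEGF that is also used as a marker of human pDCs and of thymus-derived regulatory T cells. Its level was 107 and 105 CPM in pDCs, 83.0 and 98.3 in macrophages, 41.9 and 68.4 in T cells, and 52.9 and 48.9 in CLEC10A cDC2s. It was 34.5 and 30.6 CPM in NK cells, 22.7 and 36.0 in mature DCs, 27.4 and 27.3 in DCIR2 cDC2s, 28.7 and 23.7 in cDC1s, and 9.42 and 4.42 in B cells. The pDCs and macrophages led in both replicates, and B cells were lowest in both.

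Nrp1 was 1.51 ± 0.15 log2 units higher in macrophages (adjusted p = 2.43e-08) and 1.49 ± 0.28 higher in pDCs (0.00141) than in resident cDCs, and these 2 classes differed by 0.02 ± 0.28 (0.974). Without the 21 pDCs that met a second gate, the pDC difference was 0.39 (0.703), so the pDC value rests on those cells. T cells were 0.70 ± 0.22 higher (0.0168), which was 0.44 (0.109) without cells of more than 1 gate and 0.08 without replicate 2. CLEC10A exceeded DCIR2 cDC2s by 0.95 ± 0.19 (0.00434). A Nrp1 UMI was seen in 62.8% and 68.5% of macrophages and 6.15% and 0.581% of B cells (medians of 7677 and 6981.5 UMIs), or after thinning in 20.7% and 23.1% against 2.15% and 0.560%. Endothelial markers were also higher in macrophages and pDCs: their summed level over 5 genes was 602 and 534 CPM in macrophages and 314 and 303 in pDCs, with Stab2 at 0 in pDCs and no marker at 0 in macrophages, against 90.2 to 131 CPM in resident cDC classes. Of these genes Kdr alone had a pooled level of 138 CPM in pDCs and 0.75 in macrophages. The markers did not follow Nrp1 in every class, with sums of 201 and 291 CPM in B cells and 95.2 and 118 in CLEC10A cDC2s. Their part in the Nrp1 result was not tested. Macrophages carried Plxna1 and Nrp1 together in 60.1% and 67.7% of cells, and Plxna1 and Plxnb2 together in 89.1% and 87.7%.

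**Figure D3:**
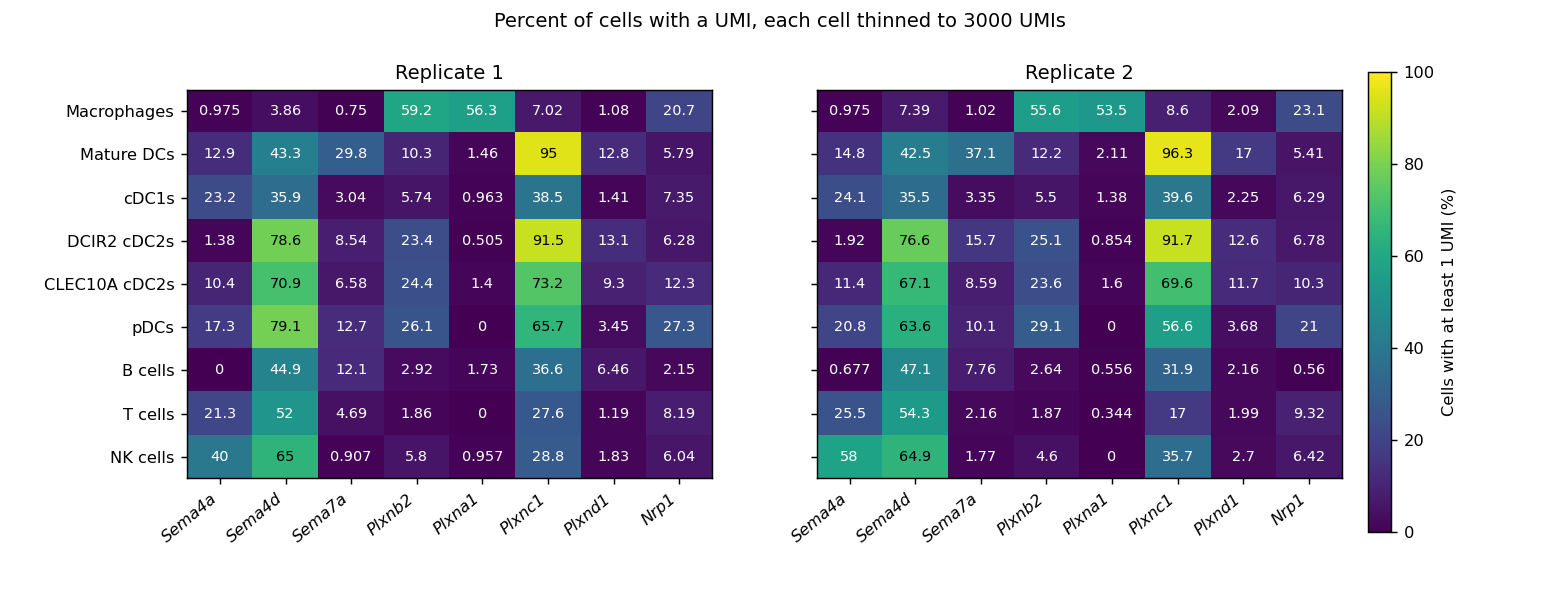
Percent of cells with at least 1 UMI of each gene (colour, 0 to 100) after every cell was thinned to 3000 UMIs, for 9 classes in each replicate. Macrophages show Plxnb2 and Plxna1 (59.2 and 56.3 in replicate 1), mature DCs and DCIR2 cDC2s show Plxnc1 (94.97 and 91.5), and NK cells show Sema4a (40.04 and 58.0).

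Macrophages with a Siglec1 UMI (112 and 56 cells) were compared with cDC1s with a UMI of Cd207, the Langerin gene (116 and 112 cells). The study defined its MMMs by Siglec1 expression, but whether these Siglec1+ macrophages are MMMs was not tested. The 11 macrophage markers summed to 30404.5 and 28720.1 CPM in Siglec1+ and to 29374.9 and 26579.2 CPM in Siglec1- macrophages. By edgeR, 2 of 9579 genes tested were called between Siglec1+ and Siglec1- macrophages. Between Siglec1+ macrophages and Langerin+ cDC1s all 7 of the 7 members tested differed, against 51.2% of 10273 genes tested. Siglec1+ macrophages had more of 3 receptor or co-receptor genes: Plxna1 at 315 and 252 CPM against 6.09 and 7.76 (5.25 ± 0.21 log2 units higher, adjusted p = 4.41e-10), Plxnb2 at 338 and 294 against 12.2 and 17.1 (4.33 ± 0.18, 6.17e-10), and Nrp1 at 78.1 and 100 against 21.9 and 15.1 (2.14 ± 0.23, 5.89e-06). Langerin+ cDC1s had more of the members' ligand genes: Sema4a at 99.5 and 101 CPM against 3.04 and 4.55 (29.9-fold, 1.05e-08), and Sema4d at 173 and 147 against 11.7 and 20.04 (11.7-fold, 3.44e-08). This did not hold for all semaphorins. Of 5 further semaphorin genes tested, 3 were higher and 1 lower in Siglec1+ macrophages, with Sema4b at 233 and 233 CPM against 2.03 and 3.88. Sema7a had no UMI in Siglec1+ macrophages and 71 in Langerin+ cDC1s, at least 16.0-fold lower. Plxnc1 also belonged to the Langerin+ cDC1s, with 190 and 189 CPM against 22.1 and 39.2 (7.13-fold, 1.1e-07). Plxnd1, at 5.46 CPM or less in every sum, was not tested.

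In the unpaired test, no member that could be tested was called between cells with and without Langerin or Siglec1 of the same class. Between Langerin+ and Langerin- cDC1s 0 of 8 genes were called by edgeR and 0 by DESeq2, 5 had an unadjusted p under 0.05, and 0.824% of all 11042 genes tested were called. Plxnc1 was 190 and 189 CPM in Langerin+ and 236 and 250.6 CPM in Langerin- cDC1s, a fall of 0.27 ± 0.08 log2 units (adjusted p = 0.192). With the sample as a replicate block Plxnc1 was called (0.0111), and the calls over all genes went from 91 to 627. The 7 CLEC10A cDC2 markers, none at 0, summed to 430 and 358 CPM in Langerin+ against 753 and 588 CPM in Langerin- cDC1s, and their part in the Plxnc1 difference was not tested. Langerin+ cells were somewhat deeper, with medians of 22445 and 23259.5 UMIs against 19023.5 and 20216.

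Between Siglec1+ and Siglec1- macrophages 0 of 6 genes tested were called by edgeR and 0 by DESeq2, 2 had an unadjusted p under 0.05 (Sema4d and Plxnc1), and 0.0209% of all 9579 genes were called. Sema4a and Sema7a fell under the low-count filter and were not tested. Sema7a had 0 and 0 UMIs in Siglec1+ against 14 and 13 in Siglec1- macrophages, and Sema4a 7 and 5 against 17 and 7. Sema4d was 11.7 and 20.04 CPM in Siglec1+ and 24.2 and 72.4 CPM in Siglec1- macrophages, lower in both replicates, and was called with the replicate block (log2 fold change -1.46, adjusted p = 0.000184), in which 50 rather than 2 of all genes were called. Markers of other cells moved with this split: the 5 monocyte markers summed to 11.3 and 15.5 CPM in Siglec1+ and 31.6 and 28.1 CPM in Siglec1- macrophages, and the 5 erythroid markers to 5146 and 1911 against 2739 and 106. The 7 CLEC10A cDC2 markers summed to 4983 and 4995 against 5231 and 8549 CPM. Of these 7 markers 3 were highest in macrophages and 1 in CLEC10A cDC2s, so the sum cannot show how much RNA came from other cells. Their sum was 5127 and 6958 CPM in all macrophages and 2045 and 2859 CPM in CLEC10A cDC2s. None of these markers was at 0 in either group, and their part in the Sema4d difference was not tested. Plxna1 was 315 and 252 against 324 and 327 CPM and Plxnb2 338 and 294 against 303 and 285 CPM, and the fitted differences were -0.20 ± 0.13 and 0.10 ± 0.12 log2 units.

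**Figure D4:**
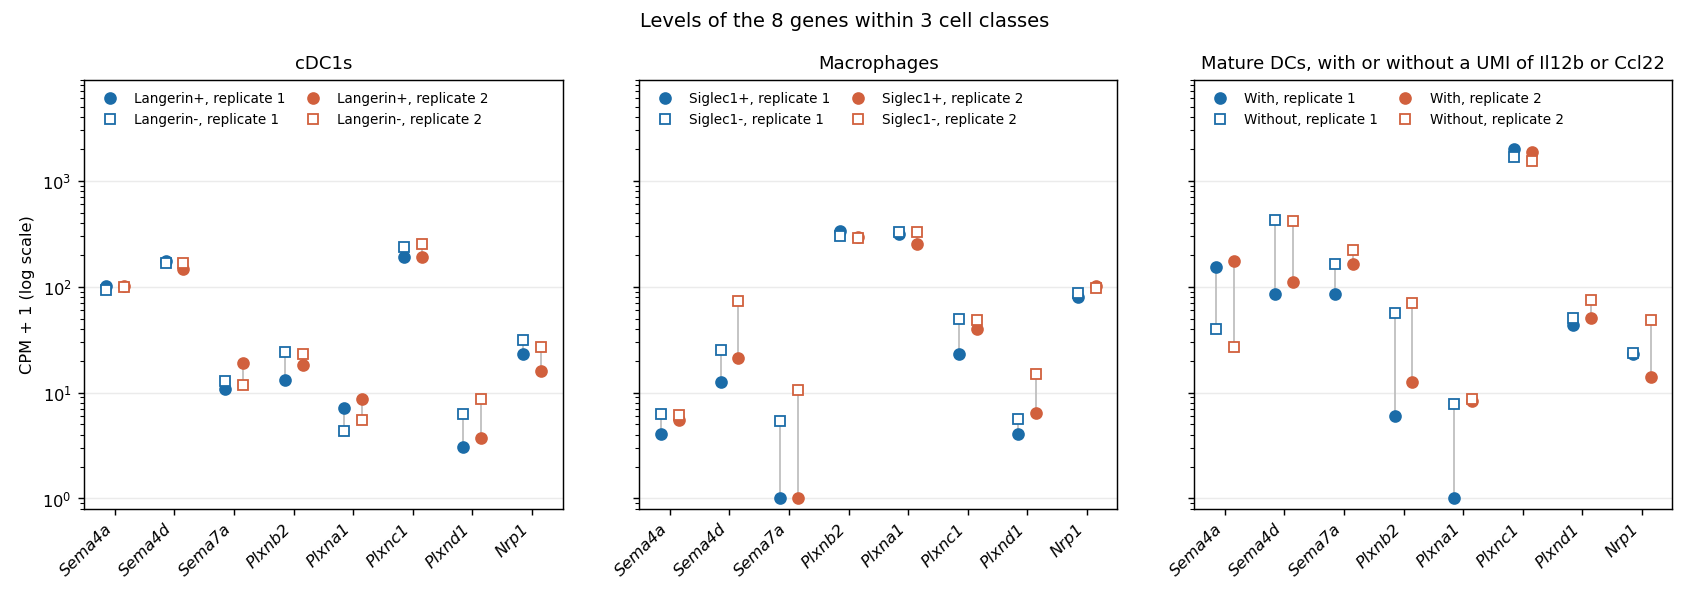
Level of each gene (CPM + 1, log scale) inside cDC1s, macrophages and mature DCs, for cells with (filled circles) and without (open squares) the marker UMI, 1 colour per replicate and a line joining the pair of each replicate. Gaps are wide in mature DCs, where Sema4d is 84.5 and 109 CPM with and 429 and 419 CPM without Il12b or Ccl22. Plxnb2 is 4.97 and 11.6 against 54.9 and 69.3 CPM there. In macrophages Sema7a is 0 and 0 CPM with and 4.34 and 9.60 CPM without Siglec1.

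Of the classes split by a marker here, only mature DCs had members called in the unpaired test. Cells with a UMI of Il12b or Ccl22, an interleukin-12 subunit gene and a chemokine gene of activated DCs, numbered 33 and 56, and cells without numbered 105 and 117. Of 7 genes tested 4 were called, against 17.6% of 8155 genes tested. Sema4a was 152 and 175 CPM with and 38.9 and 25.9 without these UMIs (2.59 ± 0.27 log2 units higher, adjusted p = 0.000124). Sema4d was 84.5 and 109 CPM with and 429 and 419 without, and fell by 1.85 ± 0.18 (0.000106). Sema4a and Sema4d, both class IV ligand genes, thus lay on opposite sides of the split without overlap in either replicate.

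Plxnb2 followed Sema4d, with 4.97 and 11.6 CPM (10 UMIs in all) against 54.9 and 69.3, and fell by 2.51 ± 0.44 (adjusted p = 0.00321). Plxnc1 was 2013 and 1869 against 1687 and 1552 CPM (0.51 ± 0.11, 0.0114), a call that was lost when total UMIs replaced TMM scaling (0.135) or cells of more than 1 gate were left out (0.143). Sema7a, the leading ligand gene of the whole class, was 84.5 and 161 against 164 and 221 CPM and was not called (-0.34 ± 0.28, 0.452). Markers of resident cDCs moved with the split: the 7 DCIR2 cDC2 markers summed to 390 and 262 CPM with and 1183 and 1099 CPM without these UMIs, and the 8 cDC1 markers to 1308 and 1226 against 1044 and 956. Their part in the split of Sema4a, Sema4d and Plxnb2 was not tested.

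Over the 18 sums of 9 classes in 2 samples, the genes most like each member were ranked by Pearson's r of log2(CPM + 10), as a description. The sums of 1 sample share its library, and r reflects mostly the class with the highest level. Plxna1 was followed most closely by Igf1, Col14a1 and Itgb5 (r = 0.99, 0.99 and 0.98), all highest in macrophages, and Plxnb2 by Slc15a3, Clec4a2 and Stard5 (0.96, 0.95 and 0.95). Sema7a was followed by Birc3, Rab21 and Rel (0.94, 0.94 and 0.89) and Plxnc1 by Polb, Traf1 and Jak2 (0.93 each), all highest in mature DCs. Sema4d was followed by Runx3, Pbxip1 and Smad7 (0.97, 0.96 and 0.93). Sema4a, Plxnd1 and Nrp1 had looser partners, led by Tagln2 (0.87), Ehf (0.89) and Gsr (0.88). The ranking depends on the measure: by Spearman's rho the 3 nearest genes of Plxna1, Plxnc1 and Sema4d were all different ones.

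The wider pathway was read from 57 further genes of semaphorins, plexins, other receptors and plexin signalling partners, of which 39 were tested. In macrophages 20 rose, 11 fell and 8 were not called, with a median log2 fold change of 0.64 against -0.03 over all genes. The ligand genes Sema6d, Sema6a and Sema4b led. Sema6d, whose product is a ligand of plexin-A1, was 505 and 526 CPM in macrophages and no more than 3.16 CPM in any resident cDC class (7.73 ± 0.16 log2 units higher, adjusted p = 7.71e-18). Sema4b was 223 and 212 CPM there (4.82 ± 0.20) and Sema6a 73.2 and 63.6 (6.55 ± 0.34). The largest falls were those of Sh3bp1, a Rac GAP bound by plexin-D1 (-2.63), the small GTPase gene Rnd3 (-2.44) and the adhesion gene L1cam (-2.41). Thus macrophages, low in the ligands Sema4a, Sema4d and Sema7a, were not low in every semaphorin.

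In mature DCs 12 of the 39 rose, 9 fell and 18 were not called, with a median of 0.00. Sema6d rose here too (63.7 and 84.5 CPM, 4.94 ± 0.21), along with Sema3f (3.58 ± 0.65) and the VEGF receptor gene Kdr (3.33 ± 0.45), which is also 1 of the 5 endothelial markers, while Mical2 (-2.26), Dpysl2 (-1.27) and Rnd3 (-1.15) fell. Nrp2, the other neuropilin gene, named after its values were seen, was 44.8 and 21.5 CPM in mature DCs (3.25 ± 0.54, adjusted p = 9.19e-05). Within mature DCs, Sema6d was 129 and 201 CPM in cells with and 41.4 and 23.6 CPM in cells without Il12b or Ccl22 (2.63 ± 0.32, 0.000349), on the side of Sema4a, and 5 of 29 genes tested were higher and 4 lower.

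In cDC1s 12 rose and 12 fell against cDC2s, and 15 were not called. Met, a partner of plexin-B receptors (59.1 and 61.3 CPM in cDC1s, 4.62 ± 0.32), Sema4f (4.40 ± 0.27) and Itga1, a subunit of an integrin bound by Sema7a (4.33 ± 0.35), led the rises. Cd72, a receptor of Sema4d, fell most (2.56 and 4.51 CPM in cDC1s, -3.92 ± 0.22), followed by L1cam (-3.24) and Kdr (-2.83). In B cells 4 rose and 16 fell, and Cd72 was highest there (234 and 246 CPM, 3.22 ± 0.16), with Sema5a (4.74) and Sema4b (4.32). The remaining comparisons had 6 higher and 3 lower in pDCs, 7 and 10 in T cells, 7 and 5 in NK cells, and 4 and 2 in CLEC10A against DCIR2 cDC2s. Siglec1+ macrophages against Langerin+ cDC1s had 14 higher and 9 lower of 32 tested, among them Sema6d at 528 and 521 against 1.62 and 1.16 CPM. The split by Langerin had 0 of 37 called by edgeR and 0 by DESeq2, with 12 at an unadjusted p under 0.05 and 3 called with the replicate block, and that by Siglec1 had 0 of 31 called by both tools, with 2 at an unadjusted p under 0.05. Plxnb1, the other known plexin of Sema4d, had at most 2 UMIs in any class of either replicate.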

How the data were processed

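Single-cell transcriptomes of splenic CD11c+ cells from 2 wild-type samples were analysed. Per the labels and file headers, the authors aligned and counted reads with the BD Rhapsody WTA pipeline (1.12.1; GRCm38 with PhiX, GENCODE vM19, introns counted) and deposited UMI counts per cell, corrected for UMI errors. Strand use was not given in the sources used here. R 4.2.3 and Seurat 4.3.0.1 are named in the submitters' processing notes. All columns of values belong to these 2 samples.

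From these counts, genes in fewer than 3 cells, cells with under 200 genes and cells beyond the mean ± 3 MAD (mitochondrial UMIs, genes or total, per sample) were removed, leaving 40593563 and 36097062 UMIs. Gates, in UMIs and in order, were Vcam1 20 and C1qb 5 (macrophage), Ccr7 2 and Fscn1 1 (mature DC), Clec9a 2 and Xcr1 1 (cDC1), Siglech 3 and Ccr9 1 (pDC), Cd79a 3 (B), Cd3e 2 (T), Ncr1 1 (NK), Clec4a4 2 (DCIR2 cDC2) and Clec10a plus Cd209a 2 (CLEC10A cDC2). No doublet caller was run, and an alternative left out cells that met more than 1 gate. The members, gene lists and comparisons were chosen with earlier results of these data known.

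UMI sums per sample and class were tested with edgeR 4.0.16 (R 4.3.3, limma 3.58.1): TMM, filterByExpr, quasi-likelihood test, Benjamini-Hochberg over all genes tested, threshold 0.05, gate genes left out. Fitted log2 fold changes include TMM factors and so differ slightly from ratios of CPM. The 8 comparisons of classes used 1 fit over 9 classes (18 sums, 9 residual degrees of freedom), and the 4 of subgroups used 2 sums against 2. Standard errors were taken as the size of the log2 fold change over the root of its F statistic. DESeq2 1.42.0, other scalings, filters and cell sets, leaving out each replicate and the sample as a replicate block were alternatives. Same-numbered sums come from the same sample, and their deviations correlated at r = -0.00416 to 0.242 over 8 pairs of groups. Replicates of a class differed by more than counting noise (chi-square per degree of freedom 2.49 to 6.68). On simulated data, 89 of 100 genes changed 4-fold and 65 of 100 changed 2-fold were recovered for macrophages, 66 and 31 for NK cells, 88 and 60 for the Langerin split and 81 and 30 for the mature DC split. Among unchanged genes 10, 6, 12 and 13 were called. Unlike in the data, these genes had the same expected share of UMIs in every class, so recovery in the data may differ. Shares of cells have exact binomial (Clopper-Pearson) intervals. Python 3.11.15, numpy 2.4.6, pandas 2.3.3, scipy 1.17.1 and matplotlib 3.10.9 were used. Named genes were the 8 members, up to 3 called pathway genes with the largest changes in each direction per comparison, and the 3 genes most like each member with at least 50 CPM in their highest class; genes with 3 or fewer UMIs on the low side are not given a fitted fold change. Gene positions are those of GENCODE M21 (GRCm38).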

Additional observations from a re-analysis of the deposited data

How the results depend on the processing

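Of the members' fold changes under all alternatives, 890 were unchanged, 25 lost their call and 18 gained one. A further 13 moved when a replicate was left out and 9 changed sign, none of these 9 a called value. Unchanged meant the same direction and side of the threshold in a new fit. It also covered 90 values without replicate 1 and 81 without replicate 2, for which no test was run. These lay no further from the main value than the SD of the 2 single-replicate values. With a replicate left out, a change of sign was counted only for called values. The sign changes were those of Plxnc1 in pDCs and Plxnd1 in the mature DC split without cells of more than 1 gate (0.31 and 0.066), Plxna1 in B cells and Nrp1 in the Siglec1 split with all deposited cells (0.29 and 0.030), Sema4d in NK cells with DESeq2 size factors (0.085), DESeq2 (0.082) or total UMIs (0.24), and Sema4d in the Langerin split with no low-count filter (-0.016) or total UMIs (-0.067). Nrp1 in pDCs against macrophages, at -0.02 in the order of levels, was 0.22 with total UMIs, 0.047 with raised gates, 0.017 with only these classes in the fit and -1.19 (adjusted p = 0.0428) without cells of more than 1 gate, while Sema4d in DCIR2 cDC2s against pDCs was 0.51 (0.0447) with no low-count filter. The members called in pDCs went to 0 without cells of more than 1 gate, in the Langerin split to 1 with no filter and 1 with the replicate block, and in the Siglec1 split to 2 and 1. Over all genes, CLEC10A against DCIR2 cDC2s had 661 calls and 1773 in a fit of only these classes. The Langerin split had 91 calls, 425 with no filter, 627 with the replicate block and 50 without cells of more than 1 gate. The Siglec1 split had 2 calls, 74 with no filter, 1 with DESeq2, 50 with the block, 0 with total UMIs, 10 with all deposited cells and 0 without cells of more than 1 gate. The mature DC split had 1437 calls and 869 with DESeq2. The cause of these shifts was not tested. Total UMIs in place of TMM was chosen after seeing the data, and it moved the median of all genes from -0.08 to 0.16 in NK cells and from -0.05 to -0.30 in the mature DC split. The replicate block ended the call of Plxna1 in T cells and added those of Plxnc1 (Langerin), Sema4d (Siglec1) and Plxnd1 in DCIR2 cDC2s against pDCs (adjusted p = 0.0412 against 0.0543), and changed no other call of a member. Without replicate 2, Sema4a in pDCs was 0.78, Plxnb2 in T cells -3.36, Plxnd1 in T cells -2.84, and Plxnb2 in the mature DC split -3.18, while Sema4a in T cells was 1.39 without replicate 1. The Sema7a calls in T and NK cells were lost with total UMIs (adjusted p = 0.0542 and 0.0625) or with only the classes compared in the fit (0.0554 and 0.0548), and those of Sema4a and Plxnb2 in pDCs with raised gates (0.394 and 0.408). Precision is limited in classes of few cells, such as the 32 pDCs and 74 NK cells, and with 2 samples no value distinguishes mice from libraries.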

Other observations

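The 1218 cells that met no gate (616 and 602) stayed outside all comparisons. Their levels were 1012 and 884 CPM for Plxnc1, 606 and 546 for Sema4d, 106 and 108 for Plxnb2, 55.5 and 77.1 for Sema7a, 41.5 and 47.7 for Plxnd1, 31.2 and 29.4 for Nrp1, 23.2 and 25.9 for Sema4a, and 16.7 and 16.7 for Plxna1. They held 25.8% and 26.4% of all Sema4d UMIs. In this group the summed level of 7 DCIR2 cDC2 markers was 1035 and 1026 CPM and that of 7 CLEC10A cDC2 markers 2082 and 3017 CPM, whereas that of 8 cDC1 markers was 1275 and 1144 CPM and that of 11 macrophage markers 485 and 494 CPM.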
